A study of Homo sapiens with 3 samples.

Results

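The zinc finger genes of human chromosome 19 were taken as all protein-coding genes on that chromosome whose symbol is ZNF or ZFP followed by a number, with at most 1 further letter. This rule gave 251 genes of the 1480 protein-coding genes on chromosome 19 and of 20163 in the GENCODE 44 annotation of hg19. The remaining 1229 genes of the chromosome and 276 genes with such symbols on other chromosomes stood beside them. The chromatin data came from untreated H2087 cells, a human line established from a lung adenocarcinoma. Chromatin immunoprecipitation followed by sequencing was carried out with antibody ab8580 against histone H3 trimethylated at lysine 4 (H3K4me3) and with antibody ab4729 against histone H3 acetylated at lysine 27 (H3K27ac). Each mark had 1 library, and the input library of the same cells was not analysed here.

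Most genes of this kind encode proteins with an array of C2H2 zinc fingers, each finger reading a few bases of DNA, behind an N-terminal KRAB domain. The KRAB domain recruits TRIM28, which brings the histone methyltransferase SETDB1 and heterochromatin proteins, and the best known targets are retroelements. The genes multiplied by tandem duplication and lie in clusters, and the exons coding for the fingers are known to carry H3K9me3 in many cell types. H3K4me3 marks the nucleosomes next to active or poised promoters, whereas H3K27ac marks active promoters and enhancers. In the annotation used here, the coding sequence of 216 of the 251 genes matched a KRAB pattern, and the genes held a median of 13 matches to the C2H2 finger pattern (range 0 to 39). ZFP36 was the only one without a finger match. It is a CCCH-type factor that promotes decay of AU-rich mRNAs and enters the list by its symbol alone.

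No value below has a replicate, so no test between gene sets was made. Beside each share stands its exact Clopper-Pearson 95% interval and beside each difference its Newcombe 95% interval. Both cover counting error only and treat genes as independent, which neighbouring duplicates are not. A gene was counted as marked at its start when the edge of a peak lay within 1 kb of the outer 5′ end of the gene. The depth of the libraries is unknown, so that an unmarked start and a start with too few reads cannot be told apart. As a check of the cell type, 6 of 7 epithelial genes had H3K4me3 at the start and 5 had H3K27ac, whereas none of 7 blood, endothelial and fibroblast markers had either mark there. COL1A1, a fibroblast marker among them, had both marks at another transcript start. NKX2-1, the lineage factor of lung adenocarcinoma, was the only 1 of 4 lung genes with a marked start.

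The sequences at the starts were examined first, because duplicated genes may share promoter sequence. Within the 300 bases from 250 before to 50 after the start, the ETS-type word CCGGAAG, read on both strands, was found in 101 of the 251 genes (40.2%, 34.1 to 46.6). It occurred in 13.3% (11.4 to 15.3) of the other genes of chromosome 19, in 25.7% (20.7 to 31.3) of the zinc finger genes elsewhere and in 11.8% of all protein-coding genes. ETS factors are a large family of transcription factors that bind a GGAA core. Of the 101 genes, 89 (88.1%) had a match within 50 bases of the start, compared with 57.1% of the other genes of chromosome 19 with the word. Among genes with the word, the share was 71.8% in the zinc finger genes elsewhere and 61.5% in all protein-coding genes. The GC-box word GGGCGG was as frequent in the zinc finger genes (60.6%, 54.2 to 66.6) as in the other genes of the chromosome (59.4%, 56.6 to 62.2). The remaining words searched were rare in both sets. TGACGTCA was found in 2.79% of the zinc finger genes, GCATGCGC in 4.78%, GATGGCGG in 2.79% and TCGCGA in 1.59%, against 3.25%, 5.13%, 3.42% and 3.34% of the other genes. A match is a description of the letters and not evidence of binding.

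In the runs with most matches, the ETS-type word had a preferred orientation. Runs of zinc finger genes were defined as at least 5 members with successive starts under 500 kb apart, which gave 10 runs with 236 genes and left 15 genes outside. In run 4, from ZNF101 to ZNF254 (chr19:19779605-24216207), 23 of 37 genes held the word, and all 23 had it as CTTCCGG when read in the direction of transcription. In run 8, from ZNF175 to ZNF331 (chr19:52074536-54022781), 23 of 39 genes held it, and all 23 had it as CCGGAAG. Run 10, from ZNF264 to ZNF446 (chr19:57702868-58985384), resembled run 4, with CTTCCGG in 23 and CCGGAAG in 5 of its 25 genes with the word, 3 of which held both. CCGGAAG and CTTCCGG were found in 2 and 4 genes of run 6, in 3 and 6 of run 7, in 3 and 6 of run 9 and in 2 and 1 of run 3, so that these runs held both orientations. Run 2 held CCGGAAG in 2 genes, run 5 held CTTCCGG in 3 and run 1 held neither. Over all protein-coding genes the orientations were balanced, with CCGGAAG in 1330 and CTTCCGG in 1282.

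The following stretches show the word at starts with and without H3K4me3 in runs 4, 8 and 10. They run from 50 bases before the start to the thirtieth transcribed base, 5′ to 3′ on the strand of the gene, from hg19, with the word in capitals in either orientation. For each of the runs with most matches, the 2 genes with the highest H3K4me3 value and the first 2 genes without H3K4me3 are given, among genes with the word inside the stretch.
ZNF100 (run 4, chr19:21950352-21950431, minus strand, −log10 q of H3K4me3 4.54): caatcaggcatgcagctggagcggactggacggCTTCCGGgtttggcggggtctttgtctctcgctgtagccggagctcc
ZNF728 (run 4, chr19:23185949-23186028, minus strand, −log10 q of H3K4me3 3.16): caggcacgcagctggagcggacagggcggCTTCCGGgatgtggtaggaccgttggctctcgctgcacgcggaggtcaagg
ZNF486 (run 4, chr19:20277973-20278052, plus strand, no H3K4me3 peak): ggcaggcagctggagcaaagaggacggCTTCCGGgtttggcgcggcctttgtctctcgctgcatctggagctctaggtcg
ZNF737 (run 4, chr19:20748586-20748665, minus strand, no H3K4me3 peak): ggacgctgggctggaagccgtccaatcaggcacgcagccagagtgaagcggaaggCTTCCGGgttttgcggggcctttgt
ZNF845 (run 8, chr19:53836952-53837031, plus strand, −log10 q of H3K4me3 3.76): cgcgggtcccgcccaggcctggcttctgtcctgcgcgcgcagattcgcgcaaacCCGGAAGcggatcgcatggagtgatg
ZNF813 (run 8, chr19:53970937-53971016, plus strand, −log10 q of H3K4me3 3.76): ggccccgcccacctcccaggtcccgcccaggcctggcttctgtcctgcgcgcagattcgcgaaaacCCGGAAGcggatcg
ZNF175 (run 8, chr19:52074486-52074565, plus strand, no H3K4me3 peak): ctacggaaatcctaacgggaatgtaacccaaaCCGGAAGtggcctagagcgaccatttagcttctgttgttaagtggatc
ZNF432 (run 8, chr19:52598962-52599041, minus strand, no H3K4me3 peak): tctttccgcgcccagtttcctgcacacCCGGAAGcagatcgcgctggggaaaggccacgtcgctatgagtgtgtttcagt
ZNF550 (run 10, chr19:58071202-58071281, minus strand, −log10 q of H3K4me3 5.47): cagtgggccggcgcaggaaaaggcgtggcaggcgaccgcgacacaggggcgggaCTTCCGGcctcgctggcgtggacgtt
ZNF773 (run 10, chr19:58011233-58011312, plus strand, −log10 q of H3K4me3 3.76): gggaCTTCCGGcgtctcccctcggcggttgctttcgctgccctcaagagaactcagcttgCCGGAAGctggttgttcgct
ZNF419 (run 10, chr19:57999029-57999108, plus strand, no H3K4me3 peak): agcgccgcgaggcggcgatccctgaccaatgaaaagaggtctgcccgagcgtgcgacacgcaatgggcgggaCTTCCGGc
ZNF549 (run 10, chr19:58038643-58038722, plus strand, no H3K4me3 peak): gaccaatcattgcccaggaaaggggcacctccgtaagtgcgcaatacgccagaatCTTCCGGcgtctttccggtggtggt
The longest unbroken stretch of letters in common was 34 bases for ZNF845 and ZNF813 of run 8, 21 for ZNF100 and ZNF486 of run 4 and 16 for ZNF550 and ZNF419 of run 10. These were the longest of each run. The other pairs within a run ranged from 7 to 15, and pairs from different runs reached at most 8, so that pairs such as ZNF175 and ZNF432 (7) shared no more than genes of different runs. The genes were picked for the word, so pairs with it in the same orientation shared at least 7 letters by selection. Letters were compared on the strand of the gene only, so pairs with opposite orientations had no such floor. ZNF773 held the word in both orientations. ZNF486 and ZNF737 lacked H3K4me3 but had H3K27ac at the start, each with a −log10 q of 3.55, and ZNF813 had both marks (H3K27ac 2.82).

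H3K4me3 was present at the start of 81 of the 251 zinc finger genes (32.3%, 26.5 to 38.4), beside 38.2% of all protein-coding genes. The other genes of chromosome 19 had 377 marked starts of 1229 (30.7%, 28.1 to 33.3). The difference of 1.60 percentage points was within counting error (−4.48 to 8.11). H3K27ac was present at the start of 30 zinc finger genes (12%, 8.21 to 16.6), beside 23.6% of all protein-coding genes, and at 248 starts of the other genes of the chromosome (20.2%, 18 to 22.5). Here the zinc finger genes were lower by a difference of −8.23 percentage points (−12.4 to −3.15). The zinc finger genes on other chromosomes were marked more often than those of chromosome 19, with H3K4me3 at 50.7% (44.7 to 56.8) and H3K27ac at 32.2% (26.8 to 38.1) of starts. The corresponding differences were −18.5 (−26.5 to −10.1) and −20.3 (−27 to −13.3) percentage points.

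**Figure D1:**
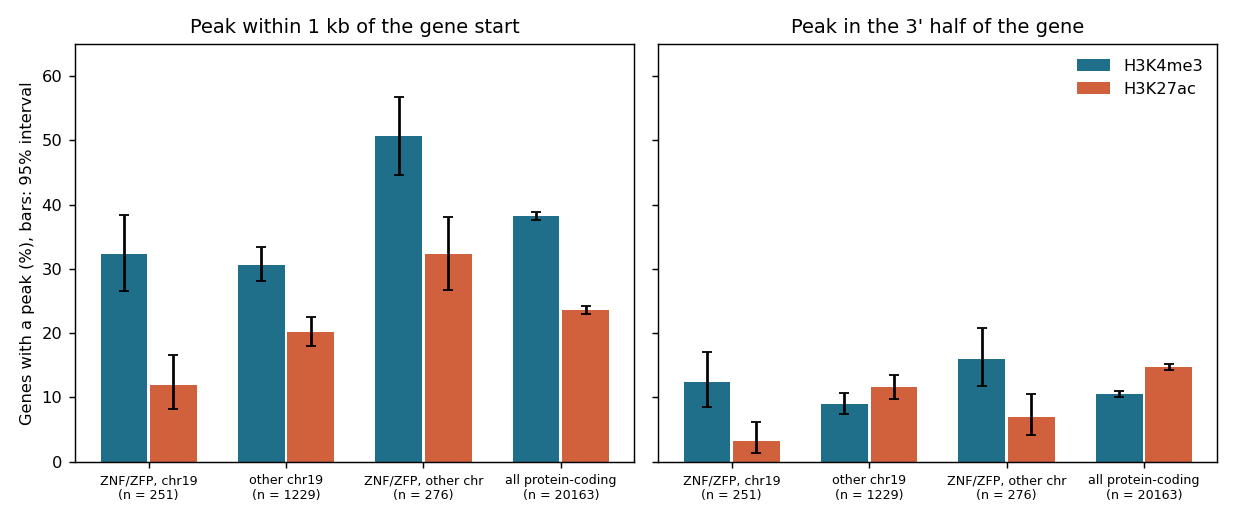
Share of genes with a peak (y axis, percent) within 1 kb of the gene start (left) and in the 3′ part of the gene (right) for 4 sets of genes (x axis), with H3K4me3 in blue, H3K27ac in orange and exact 95% intervals as error bars. The chromosome 19 zinc finger genes matched the other genes of the chromosome in H3K4me3 at the start (32.3% and 30.7%) and lay below them in H3K27ac at the start (12% and 20.2%) and in the 3′ part (3.19% and 11.6%).

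The marks met less often at the zinc finger starts. Both were present at 19 genes (7.57%), H3K4me3 alone at 62 (24.7%) and H3K27ac alone at 11 (4.38%). In the other genes of the chromosome these shares were 14.2%, 16.5% and 6.02%, and over all protein-coding genes 18.6%, 19.6% and 4.99%. Neither was present at 159 zinc finger genes (63.3%, the same share as in the other genes of the chromosome, against 56.8% of all protein-coding genes). Of the 81 starts with H3K4me3, 19 (23.5%, 14.8 to 34.2) also had H3K27ac, compared with 174 of 377 (46.2%, 41.0 to 51.3) in the other genes of chromosome 19 and 72 of 140 (51.4%, 42.8 to 60.0) in the zinc finger genes elsewhere. The share over all protein-coding genes was 48.6%. The difference from the other genes of the chromosome was −22.7 percentage points (−32.1 to −11.3). Of the starts without H3K4me3, 6.47% (3.27 to 11.3) of the zinc finger genes and 8.69% (6.88 to 10.8) of the other genes had H3K27ac. The genes with both marks included ZFP36, ZNF274, ZNF579, ZNF580, ZNF581, ZNF460 and ZNF544. At 13 of the 19 (68.4%, 43.4 to 87.4) the peaks of the marks overlapped. Among starts with both marks, they overlapped at 72.4% (65.1 to 78.9) in the other genes of the chromosome and 83.6% in all protein-coding genes.

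Against the other genes of chromosome 19, the share of H3K27ac was lower at starts that face another start and similar at the remaining starts. These classes were not matched for CpG content, which was read separately. An annotated gene of any type began on the opposite strand within 1 kb of 57 zinc finger starts. Of these, 2 (3.51%, 0.428 to 12.1) had H3K27ac, namely ZNF460 and ZNF304, compared with 108 of 307 (35.2%, 29.8 to 40.8) in the other genes of chromosome 19. The difference was −31.7 percentage points (−37.7 to −21.8). At starts that faced no other start, H3K27ac was found in 28 of 194 zinc finger genes (14.4%, 9.81 to 20.2) and in 140 of 922 other genes (15.2%, 12.9 to 17.7), a difference of −0.751 points (−5.67 to 5.29). The zinc finger genes elsewhere had H3K27ac at 28% (21.8 to 35) of such starts, above those of chromosome 19. For H3K4me3, the differences in these classes had opposite signs. It marked 18 of 57 zinc finger starts that faced another start (31.6%, 19.9 to 45.2) and 50.5% (44.8 to 56.2) of such starts in the other genes, a difference of −18.9 points (−30.9 to −4.86). Without a facing start it marked 32.5% (25.9 to 39.6) of the zinc finger genes and 24.1% (21.4 to 27) of the others, a difference of 8.40 points (1.57 to 15.8). Whether the differences differed between the classes was not tested. The gene on the opposite strand was protein-coding for 19 zinc finger genes, of which 7 had H3K4me3 and none had H3K27ac, and 8 of the 19 faced another zinc finger gene of the set. In the other genes of the chromosome, H3K27ac was present at 74 of 197 starts with a protein-coding partner (37.6%, 30.8 to 44.7). H3K4me3 was present at 101 of these 197 (51.3%, 44.1 to 58.4). Over all protein-coding genes, 1742 of 2678 such starts had H3K4me3 (63.2 to 66.9%) and 1094 had H3K27ac (40.9%). Partners on opposite strands can share a peak, and a pair with both genes in a set then counts as 2 starts. Of the 8 that faced another zinc finger gene of the set, 6 had H3K4me3 (75%, 34.9 to 96.8). They were the pairs ZNF345 and ZNF790, ZNF829 and ZNF568, and ZNF383 and ZNF585B, each pair with the same peak.

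CpG content separated the starts in a similar way. The observed to expected ratio of CpG in the 1 kb around the start had a median of 0.691 in the zinc finger genes and 0.624 in the other genes of the chromosome. With a ratio of at least 0.6, 67 of 178 zinc finger starts (37.6%, 30.5 to 45.2) had H3K4me3, compared with 320 of 652 (49.1%, 45.2 to 53.0) in the other genes. H3K27ac was found at 13.5% (8.83 to 19.4) and 31.6% (28.0 to 35.3) of these CpG-rich starts, a difference of −18.1 percentage points (−23.7 to −11.4). Below 0.6, 14 of 73 zinc finger starts (19.2%, 10.9 to 30.1) and 9.88% (7.57 to 12.6) of the others had H3K4me3, and the shares with H3K27ac were 8.22% and 7.28%. The similar overall H3K4me3 shares thus combined a lower share among CpG-rich starts and a higher one among CpG-poor starts with a different make-up. CpG-rich starts were 178 of the 251 zinc finger starts and 652 of the 1229 others. The share of repeated sequence was read beside it. Among starts with under 10% of repeated 32-base words, H3K4me3 was found at 38.5% (29.6 to 47.9) of the zinc finger genes and 38.2% of the others, and H3K27ac at 11.1% (6.05 to 18.3) and 23.5%.

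The start peaks of the zinc finger genes were of ordinary height for their lists. The −log10 q, the significance that the authors' peak caller gave a peak within its own list, had a median of 2.97 over the highest H3K4me3 peak of the 81 marked genes, with a range of 1.34 to 7.24. The median was 3.16 in the other genes of the chromosome (highest value 13.9), 4.06 in the zinc finger genes elsewhere and 3.76 in all protein-coding genes. For H3K27ac, the median was 2.82 in the 30 marked zinc finger genes (range 1.39 to 6.48) and 3.04 in the other genes. The widest H3K4me3 peak at the start had a median width of 337 bp, against 396 bp in the other genes. The strongest H3K4me3 peak was centred a median of 440.5 bp downstream of the start, and the strongest H3K27ac peak a median of 345 bp downstream. The lower quartiles were 245.5 and 237 bp downstream, so that most of these peaks were on the transcribed side of the start. Some were upstream, the furthest centred at −990 bp for H3K4me3 and −1094 bp for H3K27ac. Distances were taken from the outer 5′ end of the gene, so that a peak at an inner transcript start also counts as downstream. Of 89 distinct H3K4me3 peaks at zinc finger starts, 4 lay at several starts and touched 8 genes.

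**Figure D2:**
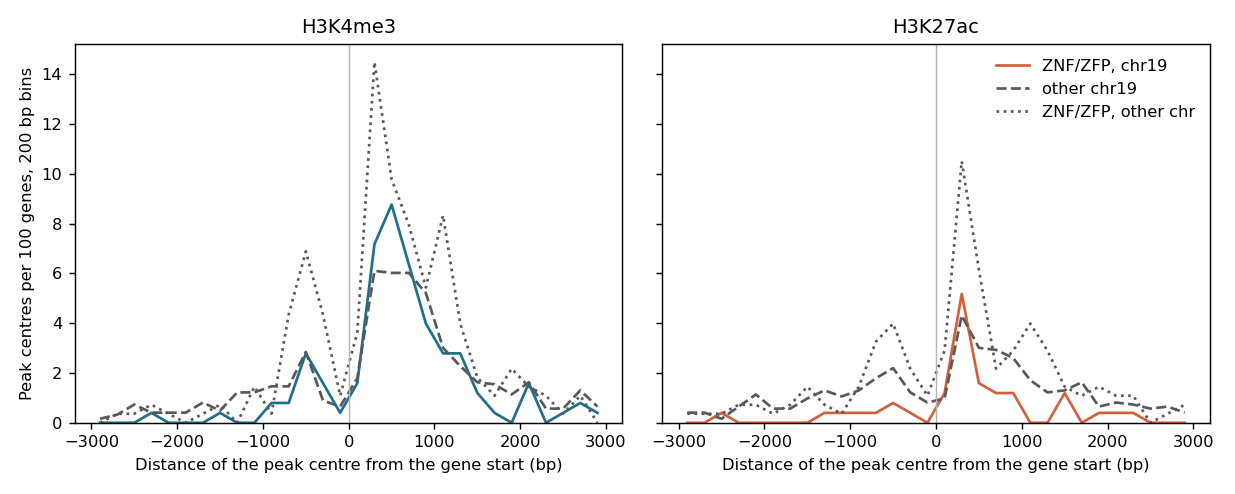
Peak centres per 100 genes (y axis) in 200-bp bins from 3 kb upstream to 3 kb downstream of the gene start (x axis, bp) for H3K4me3 (left) and H3K27ac (right), in the chromosome 19 zinc finger genes (coloured line), the other genes of chromosome 19 (dashed) and the zinc finger genes of other chromosomes (dotted). In all 3 sets, most centres lay downstream of the start, and a smaller H3K4me3 maximum stood upstream.

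The highest H3K4me3 values at a start were those of ZNF418 (peak at chr19:58446141-58446521, 381 bp) and ZNF544, each with a −log10 q of 7.24. They were followed by ZNF442 and ZNF555 (6.39 each), ZNF582 (6.30) and ZNF749 (5.92). All 6 genes matched the KRAB pattern, and 3 of them, ZNF418, ZNF544 and ZNF749, lie in run 10. Only ZNF544 also had H3K27ac at its start, with a −log10 q of 2.22. The highest H3K27ac values were those of ZNF579 (6.48), a gene without a KRAB match, ZNF460 (5.23), ZNF599 and ZNF461 (4.32 each), ZNF274 (4.21) and ZNF587B (3.71). The H3K4me3 value was 3.11 at ZNF579 and 2.49 at ZNF460, whereas ZNF599 and ZNF587B had no H3K4me3 peak at the start. The orders of the genes by the marks were thus different. The most bases under H3K4me3 peaks at a start were found at ZFP36 (905 bp in 2 peaks), ZNF606 (865 bp in 2 peaks) and the neighbours ZNF580 and ZNF581, which shared 1 peak of 812 bp and 1223 bp of H3K27ac.

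**Figure D3:**
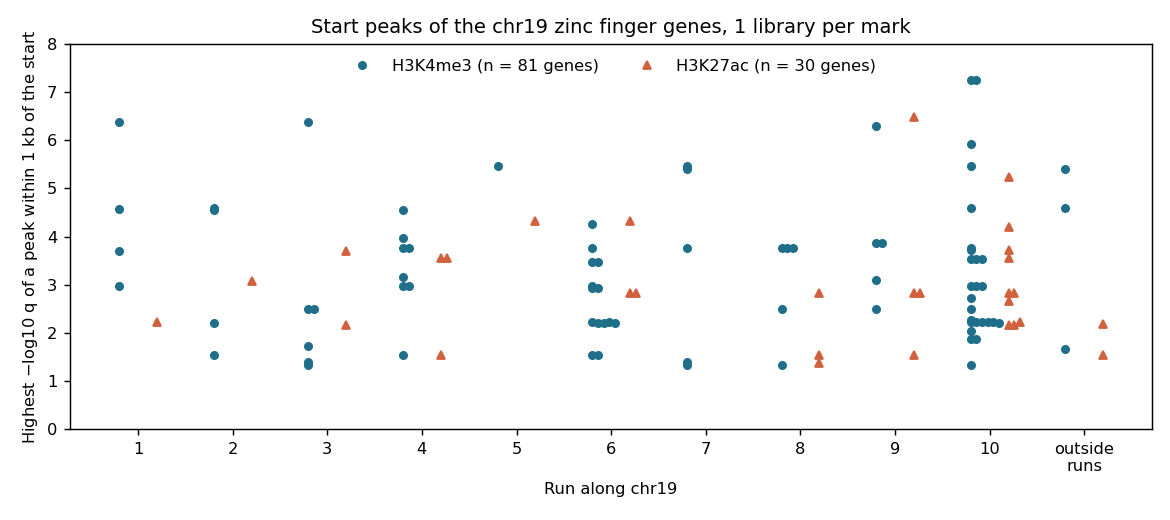
Highest −log10 q of a peak within 1 kb of the start (y axis) for each marked zinc finger gene, by run along chromosome 19 (x axis), with H3K4me3 as blue circles (81 genes) and H3K27ac as orange triangles (30 genes). Run 10 held the highest H3K4me3 values (7.24), run 9 the highest H3K27ac value (6.48), and run 7 no H3K27ac at all.

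The marked genes were unevenly spread over the clusters. In run 10, at the distal end of the long arm, H3K4me3 was present at 26 of 43 starts (60.5%, 44.4 to 75) and H3K27ac at 10 (23.3%). In run 8, H3K4me3 was present at 5 of 39 starts (12.8%, 4.30 to 27.4), namely ZNF347, ZNF665, ZNF845, ZNF765 and ZNF813, and H3K27ac at 3. Run 6, from ZNF146 to ZNF573, had 14 marked starts of 29 (48.3%, 29.4 to 67.5), and run 4 had 8 of 37 (21.6%, 9.83 to 38.2). In run 7, from ZNF575 to ZNF180, 5 of 23 starts had H3K4me3 and none had H3K27ac (upper bound 14.8%). The remaining runs 1, 2, 3, 5 and 9 had H3K4me3 at 4 of 5, 4 of 13, 6 of 25, 1 of 5 and 5 of 17 starts, and the genes outside runs at 3 of 15. Genes of other names within the span of run 10 had H3K4me3 at 6 of 22 starts, and those within the span of run 8 at none of 15. The median CpG ratio was 0.753 in run 10, 0.718 in run 8, 0.729 in run 6 and 0.537 in run 4, so that the low share of run 8 stood beside a CpG ratio close to that of run 10. The median share of repeated words at the start was 8.08%, 13.1%, 7.07% and 20.2% in the same order, and its part in the shares was not tested. The runs were compared with their values in view and therefore as a description.

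**Figure D4:**
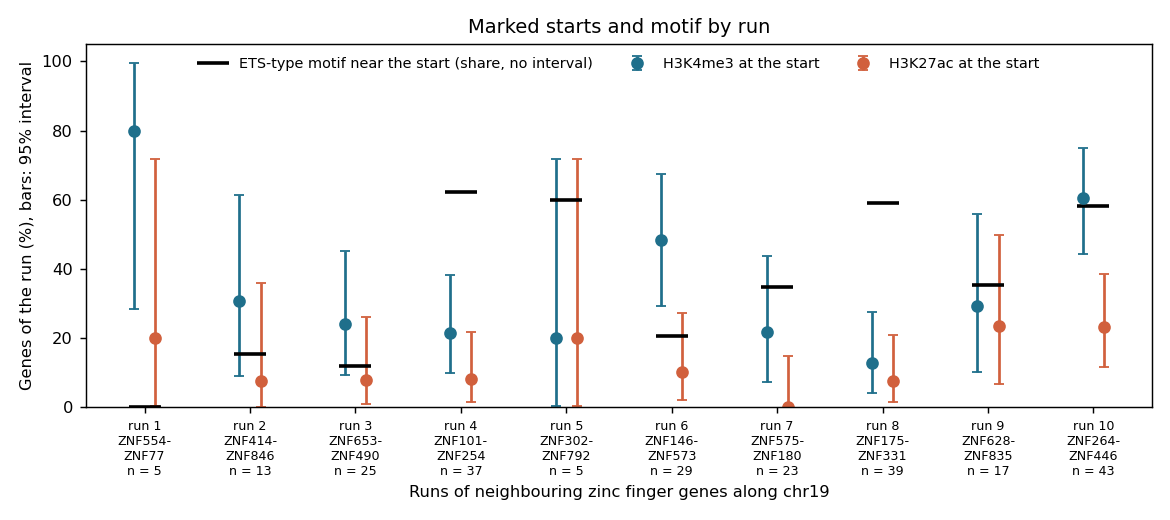
Share of genes (y axis, percent) with H3K4me3 (blue) or H3K27ac (orange) within 1 kb of the start in each of 10 runs of zinc finger genes (x axis, with first and last gene and number of genes), with exact 95% intervals, and the share of genes with the ETS-type word near the start (black bars). Runs 8 and 10 held the word in similar shares (23 of 39 and 25 of 43) but differed in H3K4me3 (12.8% and 60.5%).

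The share of genes with the ETS-type word and the share with H3K4me3 did not go together over the runs. Runs 4, 8 and 10 held it in 62.2%, 59.0% and 58.1% of their genes and H3K4me3 at 21.6%, 12.8% and 60.5% of starts. Run 6 held the word in only 6 of 29 genes and was marked at 48.3%. Over all zinc finger genes, H3K4me3 was found at 34 of 101 starts with the word (33.7%, 24.6 to 43.8) and at 47 of 150 without it (31.3%, 24 to 39.4). In the other genes of the chromosome the shares were 49.7% (41.8 to 57.6) and 27.8% (25.1 to 30.6). The zinc finger genes elsewhere had H3K4me3 at 69.0% (56.9 to 79.5) of starts with the word and 44.4% (37.5 to 51.5) without it. The word was thus accompanied by more H3K4me3 in both of these sets, whereas in the zinc finger genes of chromosome 19 the pooled intervals overlapped almost fully. Whether the sets differed in this was not tested. The pooled shares mix runs. In run 6, H3K4me3 marked 66.7% (4 of 6) of starts with the word and 43.5% (10 of 23) without it. With and without the word, it marked 25% (2 of 8) and 20% (3 of 15) in run 7. In run 8 it marked 17.4% (4 of 23) and 6.25% (1 of 16), and in run 9 50% (3 of 6) and 18.2% (2 of 11). Runs 4 (21.7% and 21.4%) and 10 (60% and 61.1%) had similar shares. In runs 2, 3 and 5, 0% with the word (of 2, 3 and 3 genes) stood beside 36.4%, 27.3% and 50% without it (of 11, 22 and 2 genes). Within each of these runs the intervals overlapped.

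Genes with and without a KRAB match were marked by H3K4me3 in similar shares, 71 of 216 (32.9%, 26.6 to 39.6) and 10 of 35 (28.6%, 14.6 to 46.3). H3K27ac was present at 23 of 216 starts with KRAB (10.6%, 6.87 to 15.5) and at 7 of 35 without it (8.44 to 36.9%), with overlapping intervals. H3K4me3 was found at 25.8% (11.9 to 44.6), 31.9% (22.7 to 42.3) and 34.1% (25.9 to 43.1) of genes with under 8, 8 to 12, and 13 or more finger matches. H3K27ac was found at 2 of 54 zinc finger genes of 40 kb or more (3.70%, 0.452 to 12.7) and at 7 of 26 under 10 kb (26.9%, 11.6 to 47.8), while in the other genes of the chromosome the shares were 21.5% and 18%.

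Groups of genes with known roles were read from lists. They are small, and their counts stand beside 38.2% of all protein-coding starts with H3K4me3 and 23.6% with H3K27ac. ZNF274, which binds the 3′ ends of zinc finger genes and recruits SETDB1 there, had H3K4me3 at its start with a −log10 q of 2.21 (219 bp) and H3K27ac with 4.21 (298 bp). Of the 4 listed genes known to silence retroelements, none had either mark at the start. These were ZNF91 and ZNF611, which act on SVA elements, and ZNF93 and ZNF649, which act on L1 elements. Of 9 genes that have been reported as methylated at the promoter in carcinomas, 3 had H3K4me3 at the start, ZNF582 (6.30), ZFP82 (2.97) and ZNF671 (2.26), and none had H3K27ac. The H3K4me3 share of this list was close to that of all zinc finger genes of the chromosome (32.3%). The starts of ZNF154, ZNF132, ZNF677, ZNF331, ZNF382 and ZNF471 had neither mark, although another transcript start of ZNF331 had both. ZNF536 of the nervous system and ZNF541 of germ cells had no peak at the start or in the 3′ part. Of 14 genes of the KRAB co-repressor pathway, 5 had H3K4me3 at the outer start, CBX1 (3.76), CBX3 (4.54), CBX5 (3.54), DNMT1 (1.55) and TRIM24 (6.39), and CBX3 and CBX5 also had H3K27ac. TRIM28 itself had H3K4me3 at another transcript start and not at the outer one, and with any transcript start the counts rose to 9 and 8 of 14.

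The 3′ part of a gene, from its middle to its 3′ end, was examined because the finger exons lie there. H3K4me3 peaks reached it in 31 zinc finger genes (12.4%, 8.55 to 17.1), beside 10.5% of all protein-coding genes, and in 110 of the other genes of the chromosome (8.95%, 7.41 to 10.7). The difference of 3.40 percentage points had an interval of −0.513 to 8.27. H3K27ac peaks reached the 3′ part of 8 zinc finger genes (3.19%, 1.39 to 6.18), beside 14.7% of all protein-coding genes, and of 142 other genes (11.6%, 9.82 to 13.5), a difference of −8.37 points (−10.8 to −4.96). In peaks per Mb, which takes into account that the median zinc finger gene was longer (25.9 kb against 13.8 kb), H3K4me3 was at 8.24 per Mb in the zinc finger genes and 10.0 in the others. H3K27ac was at 2.50 and 14.8 per Mb. Against the other genes of the chromosome, the higher gene share of H3K4me3 was thus not seen per base, whereas the lower H3K27ac was. Over all protein-coding genes the densities were 4.26 per Mb for H3K4me3, below the zinc finger genes, and 8.04 for H3K27ac, and the zinc finger genes elsewhere had 8.18 and 4.80 per Mb. Of the 8 genes with H3K27ac in the 3′ part, 3 were among the 216 with a KRAB match (1.39%, 0.287 to 4.005) and 5 among the 35 without (14.3%, 4.81 to 30.3). These 5 were ZNF507, ZNF784, ZFP36, which has no C2H2 finger match, and the overlapping genes ZNF580 and ZNF581, which shared a peak there. They are thus not independent cases, and a relation to the KRAB match was not tested.

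Peaks in the 3′ part that lay over 1 kb from every annotated gene start were considered separately. Such H3K4me3 peaks were found in 22 zinc finger genes (8.76%, 5.57 to 13), beside 7.84% of all protein-coding genes and 5.94% (4.68 to 7.41) of the other genes of the chromosome. Such H3K27ac peaks were found in 6 zinc finger genes (2.39%, 0.882 to 5.13), beside 12.8% of all protein-coding genes and 9.44% (7.86 to 11.2) of the others. The 23 distinct H3K4me3 peaks were low and narrow, with a median −log10 q of 2.03 and a median width of 228 bp. Of these, 4 (17.4%, 4.95 to 38.8) reached the median of the whole list, compared with 31 of 89 (34.8%, 25 to 45.7) in the other genes. Over 50% of the 32-base words occurred elsewhere in the genome in 12 of the 23 peaks, against 4 of the 89 peaks in the other genes. How reads from repeated sequence were placed in the alignment is not given in the sources used here, and the part of such reads in these peaks was not tested.

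The highest peaks in the 3′ parts were those of ZFP36, with a −log10 q of 6.25 for H3K4me3 and 3.71 for H3K27ac in overlapping peaks. This gene is only 2.57 kb long, and the H3K4me3 peak was centred 1.54 kb from its start. The next were an H3K27ac peak of ZNF581 (4.70), which overlapped an H3K4me3 peak, and H3K4me3 peaks of ZNF155 (4.54) and ZNF93 (3.76). The ZNF93 peak (chr19:20045559-20045741, 183 bp) touched the last coding exon, lay 33.9 kb from the start and held no repeated words. It belonged to a gene without either mark at its start. The H3K4me3 peaks of ZNF91 (2.97), ZNF66 (2.96), ZNF274 (2.92) and ZNF606 (2.88) followed, with repeated words in 66.7%, 81.8%, 90.0% and 62.5% of the sequence, respectively. Thus the 3 highest H3K4me3 peaks were in unique sequence and the next 4 in mostly repeated sequence.

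**Figure D5:**
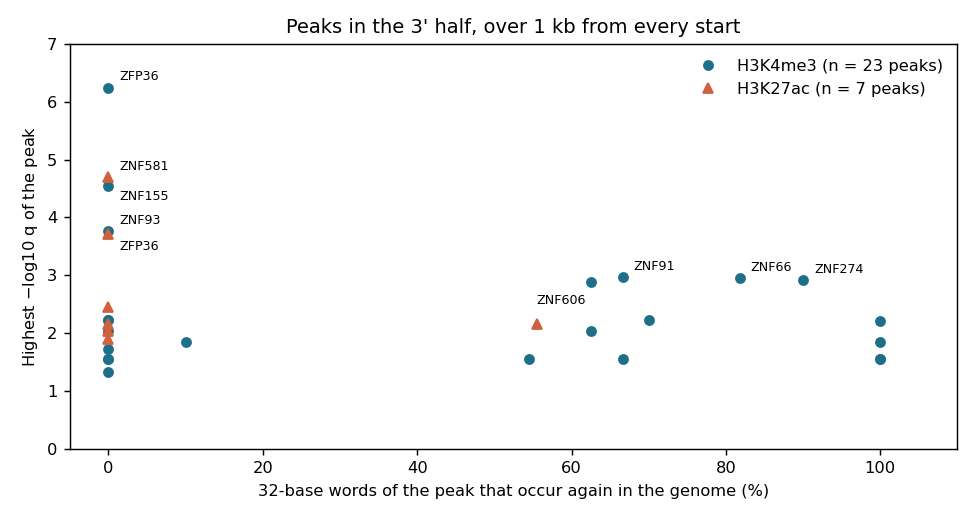
Highest −log10 q (y axis) against the share of 32-base words that occur again in the genome (x axis, percent) for peaks in the 3′ part of zinc finger genes and over 1 kb from every gene start, with 23 H3K4me3 peaks (blue circles) and 7 H3K27ac peaks (orange triangles) and the genes of the highest peaks named. The H3K4me3 peaks fell into a set without or with few repeated words and a set of 12 above 50%, none of which passed a −log10 q of 2.97.

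Among the H3K4me3 peaks, 6 of the 23 touched the last coding exon, in ZFP36, ZNF93, ZNF333, ZNF792, ZNF875 and ZNF431. The peak of ZNF792 (chr19:35449001-35449213, hg19, minus strand, −log10 q 2.23) is shown because it lay wholly within that exon and in unique sequence, so that the finger repeats under the mark can be seen. It is given 5′ to 3′ on the strand of the gene, with the word TGTGGGAAA, which recurs in the finger codons, in capitals.
ZNF792: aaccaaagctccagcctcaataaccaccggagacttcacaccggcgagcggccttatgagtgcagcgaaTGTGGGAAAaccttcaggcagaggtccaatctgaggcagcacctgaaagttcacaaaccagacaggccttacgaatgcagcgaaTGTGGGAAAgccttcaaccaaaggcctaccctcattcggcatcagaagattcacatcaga
The 2 words started 84 bases apart, the length of 1 finger with its linker. The word, chosen after the sequence was seen, was found on either strand in 3 of the 23 peaks, that of ZNF792 among them. It was found in none of the 89 corresponding peaks of the other genes. In all H3K4me3 peaks on chromosome 19 it was in 12 of 859 (1.40%), and in the whole list in 100 of 18585 (0.538%). Because the word comes from finger codons, these counts follow from the kind of gene and are no evidence about the mark. ZNF792 also had H3K4me3 at its start, with a −log10 q of 5.47 and a peak of 798 bp.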

How the data were processed

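H3K27ac and H3K4me3 were measured in H2087 cells by ChIP-seq, with 1 library each. According to the submitters' processing notes, bcl2fastq 1.8.4, Bowtie 1.1.1, SAMtools 1.2, Picard 1.118, MACS2 2.1.0 and ChIPseeker 1.6.6 were used with hg19. The deposited peak lists held a −log10 value per peak, read as −log10 q of the authors' peak caller from the numbers alone (smallest values 1.303 and 1.306, against 1.301 for q = 0.05). Peak calling parameters and the use of the input as control are not given in the sources used here, and read depth is unknown.

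Distinct intervals were taken as peaks (24096 for H3K27ac and 18585 for H3K4me3), each with its highest value. Genes and coding sequences came from GENCODE 44 mapped to hg19, and sequences from the GRCh37 assembly. Repeated sequence was the share of 32-base words, taken every 20 bases, that occurred again in the genome. The set of other genes on chromosome 19 included 13 named like zinc finger genes outside the symbol rule. The counting and the intervals were tested on simulated data. Python with numpy 2.4.6, scipy 1.17.1, pysam 0.24.0 and matplotlib 3.10.9 was used.

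The members, lists and groups were chosen with earlier results of these data known. Named genes were the 6 with the highest value per mark at the start, the 4 with most bases under H3K4me3 there, up to 8 with the highest value in the 3′ part over 1 kb from every start, the listed genes and the genes without C2H2 fingers. Other genes were named where counts were small, after their values were seen. The listed genes were ZNF274, retroelement-binding genes, genes reported as methylated, tissue-restricted genes, the KRAB pathway and cell type markers, of which PECAM1 was not used here. Differences within classes of starts, paired starts, shared promoter letters, the orientation of the word CCGGAAG and the word TGTGGGAAA were added after the data had been seen. Alternatives used peaks at or above the list median, other gene starts, 3 kb, peak centres, the last 25% of the gene, peaks away from starts and genes with a KRAB match.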

Additional observations from a re-analysis of the deposited data

How the results depend on the processing

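No paired analysis was possible because there was a single library of each mark, which also left no replicate to omit. With only peaks at or above the list median, the shares of zinc finger genes fell to 17.9% and 7.57% at the start and to 3.59% and 1.195% in the 3′ part for H3K4me3 and H3K27ac, by construction. The differences in H3K4me3 from the other genes of the chromosome then changed sign, to −0.298 percentage points at the start and −0.645 in the 3′ part, and that at the start was −0.921 with peaks within 3 kb. Each of these had an interval that included 0, as under the settings of the report. Counted by peak centres, the difference in H3K4me3 in the 3′ part was 4.21 points, with an interval (0.329 to 9.07) above 0. The difference in H3K27ac at the start moved to −12.7 points with any transcript start and −14.0 within 3 kb. With the last 25% of the gene, H3K4me3 was present in 6.77% of zinc finger genes. The differences in H3K27ac remained below 0 under every alternative run. Depth could not be examined.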

Other observations

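Over the gene and the 1 kb around its start together, H3K4me3 was found in 115 of the 251 zinc finger genes (45.8%, 39.5 to 52.2) and H3K27ac in 43 (17.1%, 12.7 to 22.4). The other genes of chromosome 19 had 40.9% and 32.9%. Over all protein-coding genes the shares were 49.8% and 40%. For H3K4me3 the interval of the zinc finger genes contained the shares of both other sets, whereas for H3K27ac it lay below both. Gene length, which differed between the zinc finger genes and the other genes of the chromosome, was not taken into account here. Along the 244 zinc finger genes of at least 5 kb, H3K4me3 peaks reached the first 5% of the gene in 68 genes (27.9%). They reached the next 5% in 29 (11.9%) and no later 5% in more than 12 (4.92%, from 10 to 15% of the gene). For the same parts, the shares were 25.6%, 13.5% and 7.83% in the other genes of the chromosome. Over all protein-coding genes of this length they were 35.9%, 12.4% and 6.95%. H3K4me3 in the 3′ part was found in 15 of the 81 genes with a marked start (18.5%, 10.8 to 28.7), against 14.3% in the other genes. Of the zinc finger genes on other chromosomes, 15.9% (11.8 to 20.8) had H3K4me3 and 6.88% (4.195 to 10.5) had H3K27ac in the 3′ part.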
